A study of Canis lupus familiaris with 6 samples.

Results

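The mitochondrial transcription and RNA stability factors were examined as a set of 10 nuclear genes, TFAM, POLRMT, TFB1M, TFB2M, TEFM, LRPPRC, SLIRP, PNPT1, SUPV3L1 and POLG. The members were taken by gene symbol, and all 10 were present among the 35993 genes of the deposited gene table. RNA-Seq had been performed on CPEK cells, a line of canine progenitor epidermal keratinocytes labelled WT and grown in DMEM with serum, penicillin and streptomycin. In the dCAMP group (3 libraries), the cells received cold atmospheric microwave plasma directly, carried by argon, for 30 s. In the control group (3 libraries), the cells received the gas alone. Both groups were incubated for 15 min, given fresh medium and harvested 24 h later, so a single cell line, exposure and time point were measured. The labels do not say whether the libraries of a group came from separate cultures, so the p-values measure the spread between these libraries, which may be technical.

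The libraries held 43084921 to 54082634 counts, and those of the gas control stood apart from each other. For a pair of replicates, a chi-square value per degree of freedom near 1 would reflect sampling noise. It was 6.26 to 9.69 for the pairs of dCAMP libraries and 79.6 to 297 for the pairs of gas libraries. Gas 3 was nearer to the dCAMP libraries (15 to 23.9) than to gas 1 (297) or gas 2 (79.6). The libraries also differed in how expression depended on transcript length. The Spearman coefficient, across genes, between length and the deviation of a gene from its own mean was −0.20 in gas 1 and −0.28 in gas 2, against 0.14 in gas 3 and 0.14 to 0.20 in the dCAMP libraries. All 14 keratinocyte markers reached 1 CPM in every library and summed to 53565 to 67400 CPM under gas and 52036 to 54503 CPM after dCAMP. For the markers, CPM is the count scaled by the plain library total, and elsewhere it is the count scaled by the TMM-normalized library total. The 7 fibroblast markers summed to 5.08 to 5.87 CPM under gas and to 5.50 to 5.86 after dCAMP, with DCN, LUM and PDGFRB at 0 throughout. The 6 melanocyte markers summed to 5.68 to 8.95 and 8.82 to 9.89, with TYR, TYRP1 and DCT at 0. The 3 endothelial markers summed to 11.6 to 15.1 and 14.1 to 19.5, with PECAM1 at 0, and the 5 leukocyte markers to 1.66 to 2.28 and 1.46 to 3.04, with PTPRC and CD3E at 0. From the fibroblast, melanocyte and endothelial lists, COL3A1, MITF and VWF reached 1 CPM in every library, and no leukocyte marker did.

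The mitochondrial genome is transcribed in the mitochondrial matrix by POLRMT, a single-subunit RNA polymerase related to those of bacteriophages. TFAM bends and packages the DNA and brings the polymerase to the promoters, TFB2M opens the DNA strands there, and TEFM keeps the polymerase moving. The long transcripts are cut into ribosomal, transfer and messenger RNAs. LRPPRC and SLIRP bind the messenger RNAs together and protect them, whereas the helicase SUPV3L1 and the exonuclease PNPT1 form the complex that degrades mitochondrial RNA. TFB1M methylates the small mitochondrial ribosomal RNA, and POLG is the catalytic subunit of the DNA polymerase that copies the genome. All 10 proteins are encoded in the nucleus and imported.

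The share of counts on the 13 mitochondrially encoded messenger RNAs was the quantity against which the factors were set. It was 0.505% in gas 1, 1.41% in gas 2 and 2.33% in gas 3, and 2.16%, 2.21% and 2.19% in dCAMP 1, 2 and 3. The Wilson 95% intervals of these shares were at most 0.00878 percentage points wide, which covers counting error only. The gas libraries were spread on both sides of the dCAMP libraries, with gas 1 and gas 2 below all 3 of them and gas 3 above. The gas control averaged 1.41% ± 0.911 (SD, n = 3), and dCAMP-treated cells averaged 2.19% ± 0.0253 (SD, n = 3). The difference of 0.773 percentage points had p = 0.4 in the two-sided exact permutation test, for which 3 libraries against 3 allow no p below 0.1. Without gas 1 the difference was 0.320 percentage points, and without gas 3 it was 1.23. In RNA from whole cultures, fewer mitochondria and less RNA per mitochondrion cannot be told apart, nor can fewer cells of a type and less RNA per cell.

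No factor was called as different between dCAMP-treated cells and the gas control. With the quasi-likelihood test of edgeR, adjusted by Benjamini-Hochberg over all 14708 genes tested, 0 of the 10 factors had an adjusted p under 0.05, with values from 0.221 to 0.910, and 0 genes of the whole table did (0%). An unadjusted p under 0.05 was found for 2 factors, POLRMT and POLG, against 20.7% of all genes tested. Both were lower in dCAMP-treated cells, as were 13.9% of all genes tested by the same limit. By the rule of a 2-fold difference with an unadjusted p under 0.05, 0 factors passed, against 1.09% of all genes tested. DESeq2 called 0 of the 10 factors, against 1.45% of the 20284 genes it tested. Limma's voom with sample quality weights called 6 factors, against 60.8% of all genes tested, namely 4 higher (32.6% of all genes) and 2 lower (28.2%). In that fit gas 1, 2 and 3 had weights of 0.115, 6.73 and 0.192, so the gas group rested mostly on gas 2. The groups did not overlap for 3 factors, against 39.9% of all genes tested. LRPPRC was the 1 that was higher after dCAMP (19.0% of all genes), and POLRMT and POLG were the 2 that were lower (20.9%). All 10 factors passed the filter on low counts. Their median log2 fold change was 0.20, with 6 factors above 0 and 4 below, whereas the median of all genes tested was 0.03.

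**Figure D1:**
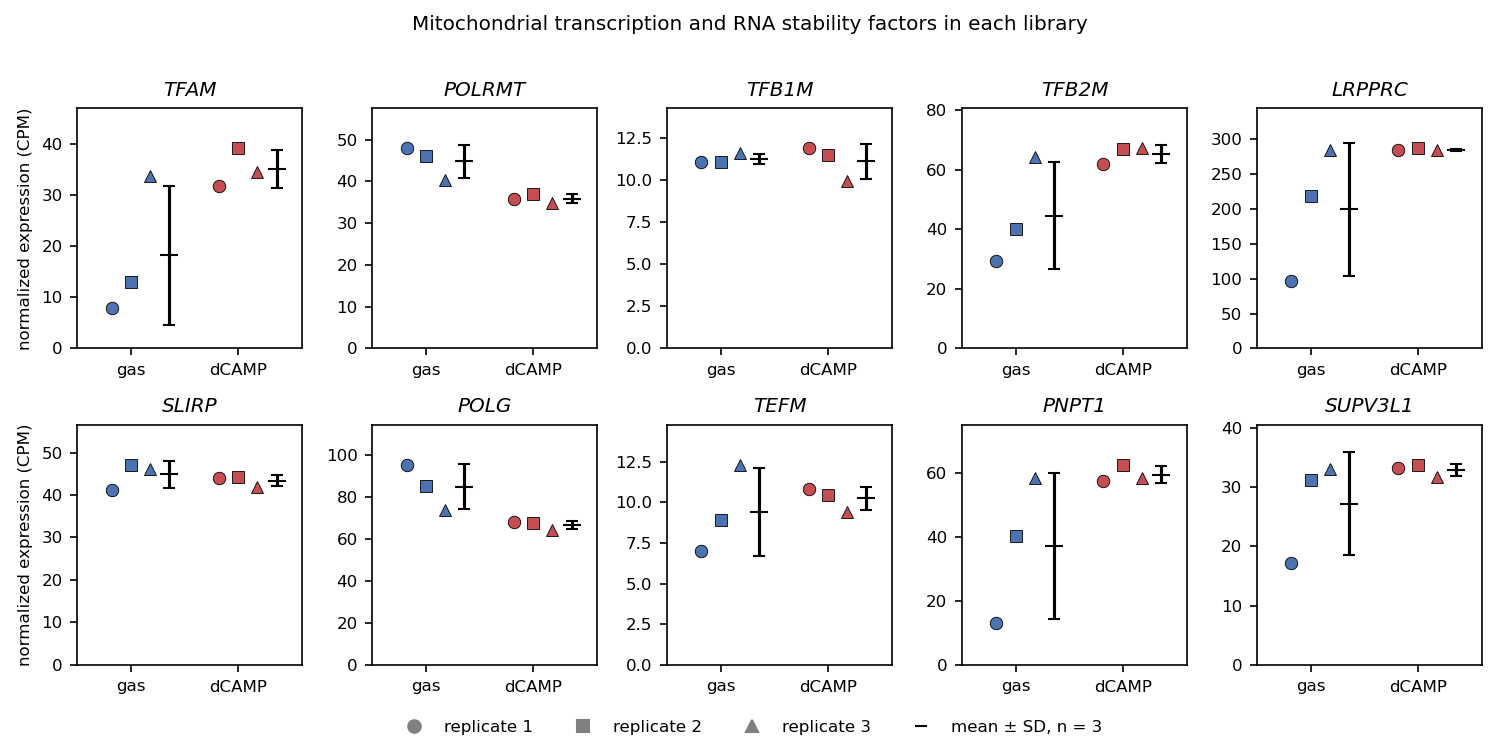
Normalized expression of the 10 factors in CPM (linear axis from 0) in each gas (blue) and dCAMP (red) library, with the mean and SD of each group (n = 3) as bars. TFAM, TFB2M, LRPPRC, PNPT1 and SUPV3L1 are spread widely over the gas libraries and narrowly over the dCAMP libraries, whereas POLRMT and POLG are highest in gas 1 and lowest in the dCAMP libraries.

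Among the factors that start transcription, TFAM (gene ID 488989; chromosome 4, 10585320 to 10600664 in the CanFam3.1 build) showed the highest log2 fold change of the 10. TFAM was measured at 7.93, 13.01 and 33.7 CPM in gas 1, 2 and 3, and at 31.8, 39.2 and 34.6 CPM in dCAMP 1, 2 and 3. Gas 1 and gas 2 were below every dCAMP library, and gas 3 lay within their range. TFAM averaged 18.2 ± 13.7 CPM (SD, n = 3) under gas and 35.2 ± 3.74 CPM (SD, n = 3) after dCAMP, and the log2 fold change was 0.95 (standard error 0.51, adjusted p = 0.290 from edgeR). TFB2M (gene ID 480102; chromosome 7, 37259671 to 37278397) was at 29.4, 40.3 and 64.3 CPM in the gas libraries and at 61.9, 67.2 and 67.2 CPM in the dCAMP libraries. Its log2 fold change was 0.55 (standard error 0.28, adjusted p = 0.275 from edgeR), and here too gas 3 lay within the dCAMP range.

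Without gas 3, TFAM and TFB2M had log2 fold changes of 1.70 and 0.86, with edgeR adjusted p-values of 0.0203 and 0.0216. In that fit 4 factors were called, against 33.1% of all genes tested, with 2 higher (15.0% of all genes) and 2 lower (18.1%), the latter being POLRMT and POLG. Without gas 1 the values were 0.58 and 0.31, with adjusted p-values of 0.331 and 0.323. Thus, in the edgeR fits, 1 control library decided whether these 2 initiation factors were called. Voom with sample quality weights called both with all libraries kept.

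The polymerase POLRMT (gene ID 485102; chromosome 20, 57908327 to 57920016) followed the opposite order. It was measured at 47.9, 46.1 and 40.4 CPM in gas 1, 2 and 3, and at 35.7, 37.0 and 34.8 CPM in the dCAMP libraries. The groups did not overlap, and gas 1, the library with the least TFAM and TFB2M, had the most POLRMT. The log2 fold change was −0.32 (standard error 0.10, unadjusted p = 0.0197, adjusted p = 0.221 from edgeR). It was −0.29 without gas 1 and −0.44 without gas 3, where the adjusted p was 0.0233. The elongation factor TEFM (gene ID 480615; chromosome 9, 40860850 to 40868020) was measured at 7.0, 8.91 and 12.3 CPM under gas and at 10.8, 10.5 and 9.43 CPM in the dCAMP libraries, so that the gas libraries enclosed the dCAMP range. Its log2 fold change was 0.12 (standard error 0.21) and −0.07 without gas 1.

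TFB1M (gene ID 476253; chromosome 1, 45001095 to 45071361), the paralogue of TFB2M that methylates ribosomal RNA, was nearly level. It had 11.1, 11.1 and 11.6 CPM in the gas libraries and 11.9, 11.5 and 9.94 CPM in the dCAMP libraries. The log2 fold change was −0.02, with a 95% interval from −0.29 to 0.25. TFB1M was the factor with the smallest spread over the gas libraries, with a coefficient of variation of 2.69%, whereas that of TFB2M was 40.0%.

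The proteins of the LRPPRC and SLIRP complex, which protects mitochondrial messenger RNAs, differed in how they varied. LRPPRC (gene ID 474572; chromosome 10, 46325312 to 46438376) was at 96.2, 219 and 284 CPM in gas 1, 2 and 3, and at 284, 287 and 284 CPM in the dCAMP libraries. All 3 gas libraries were below the dCAMP libraries, but gas 3 only by a ratio of 0.996 to the dCAMP mean. The log2 fold change was 0.51 (standard error 0.36, adjusted p = 0.368 from edgeR), and 0.16 without gas 1. The coefficient of variation of LRPPRC was 47.7% among the gas libraries and 0.502% among the dCAMP libraries. SLIRP (gene ID 490810; chromosome 8, 50471175 to 50478923) was at 41.2, 47.1 and 46.2 CPM in the gas libraries and at 44.0, 44.2 and 41.9 CPM in the dCAMP libraries. Its log2 fold change was −0.05, with a 95% interval from −0.28 to 0.19.

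The ratio of the partners' levels per length, as FPKM of LRPPRC over FPKM of SLIRP, was 0.162, 0.324 and 0.427 in gas 1, 2 and 3 and 0.448, 0.451 and 0.472 in dCAMP 1, 2 and 3. The ratio was therefore lower in each gas library than in any dCAMP library. The ratio averaged 0.304 ± 0.134 (SD, n = 3) under gas and 0.457 ± 0.0127 (SD, n = 3) after dCAMP, with p = 0.1 in the two-sided exact permutation test, the smallest value that this design allows. The transcript of LRPPRC is 6187 bases long and that of SLIRP 430 bases, and the dependence of the libraries on length was given above. With the trend on length removed, the log2 fold change was 0.33 for LRPPRC and 0.0065 for SLIRP, against 0.51 and −0.05 without this correction. The ratio itself was not tested with the correction.

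The partners of the degrading complex both had their lowest level in gas 1. PNPT1 (gene ID 481376; chromosome 10, 56478771 to 56520992), the exonuclease, was at 13.2, 40.2 and 58.3 CPM in the gas libraries and at 57.4, 62.5 and 58.4 CPM in the dCAMP libraries. Its log2 fold change was 0.67 (standard error 0.48, adjusted p = 0.374 from edgeR), and it was 0.26 without gas 1 and 1.11 without gas 3. SUPV3L1 (gene ID 489018; chromosome 4, 20313902 to 20342375), the helicase, was at 17.2, 31.3 and 33.1 CPM in the gas libraries and at 33.3, 33.8 and 31.7 CPM in the dCAMP libraries. Gas 3 lay within the dCAMP range and gas 2 just below it. The log2 fold change was 0.27 (standard error 0.25), and 0.01 without gas 1.

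POLG (gene ID 100856383; chromosome 3, 52357062 to 52373768) had the lowest log2 fold change of the 10 factors. It was at 95.3, 85.4 and 73.9 CPM in gas 1, 2 and 3, and at 67.9, 67.7 and 64.4 CPM in the dCAMP libraries, so that the groups did not overlap. POLG averaged 84.9 ± 10.7 CPM (SD, n = 3) under gas and 66.7 ± 1.94 CPM (SD, n = 3) after dCAMP. The log2 fold change was −0.35 (standard error 0.11, unadjusted p = 0.0213, adjusted p = 0.221 from edgeR), −0.28 without gas 1 and −0.48 without gas 3, where the adjusted p was 0.0222. The locus of POLG overlaps that of FANCI, which had a mean of 2856 counts, and how reads on both were divided is not given in the sources used here.

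**Figure D2:**
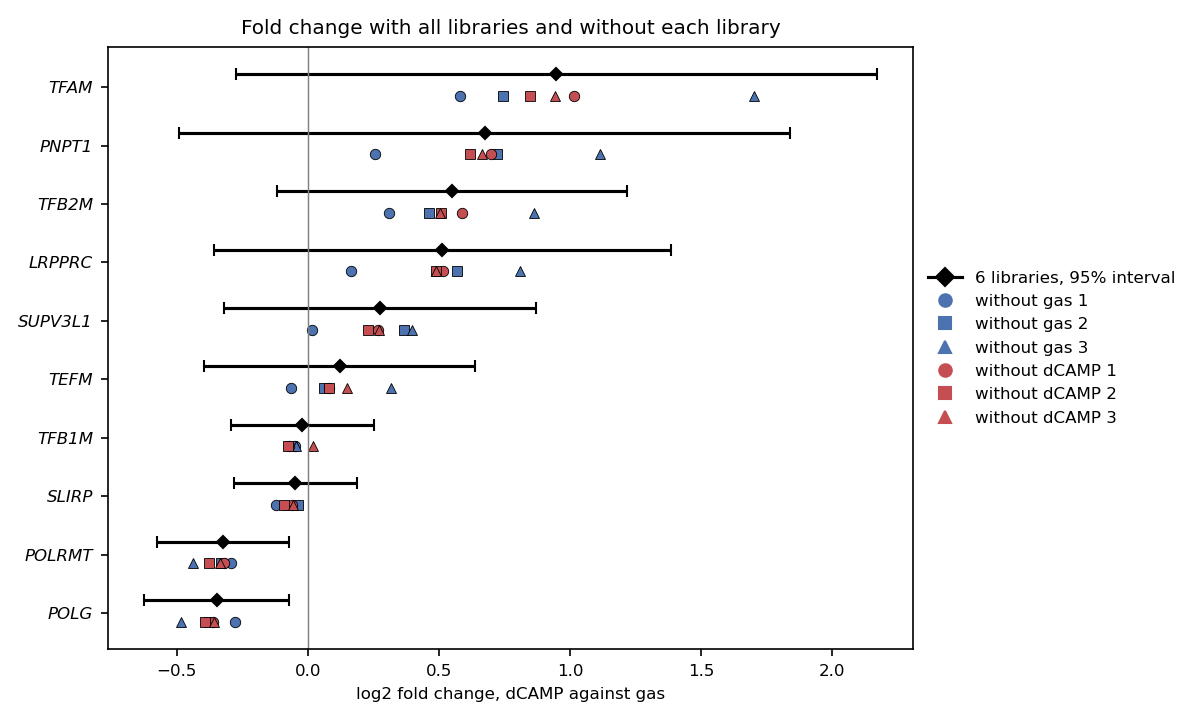
Log2 fold changes of the 10 factors, dCAMP against gas, with all 6 libraries (black diamonds with 95% intervals) and without each library in turn (coloured symbols). POLRMT and POLG stay below 0 in each of these fits, whereas TFAM, TFB2M, LRPPRC, TEFM, PNPT1 and SUPV3L1 have their lowest value without gas 1 and their highest without gas 3. TFB1M and SLIRP lie near 0.

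Each factor was then set against the share of mitochondrial messenger RNA. From gas 1 to the dCAMP mean, the share differed 4.33-fold. Over the same libraries PNPT1 differed 4.52-fold, TFAM 4.44-fold, LRPPRC 2.96-fold, TFB2M 2.23-fold, SUPV3L1 1.91-fold and TEFM 1.46-fold. How many of all genes tested had ratios of this size was not counted, so closeness to the ratio of the share is not particular to these factors. SLIRP and TFB1M had ratios of 1.05 and 1.0, and POLRMT and POLG ratios of 0.748 and 0.700. POLRMT and POLG were thus the 2 factors with their highest level in gas 1, where the share was lowest. Gas 1 held the highest level for 36.9% of all genes tested.

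From gas 2 to the dCAMP mean, the share differed 1.56-fold, TFAM 2.71-fold, TFB2M 1.62-fold, PNPT1 1.48-fold, LRPPRC 1.30-fold and TEFM 1.15-fold. SUPV3L1 was at 1.05, TFB1M at 1.0, SLIRP at 0.922, POLG at 0.781 and POLRMT at 0.776. From gas 3 to the dCAMP mean, the share had a ratio of 0.939, and the factors lay between 0.833 for TEFM and 1.04 for TFAM. Of the 10 factors, 7 had their CPM in the order of the share over the gas libraries, from gas 1 over gas 2 to gas 3, and 2, POLRMT and POLG, had the reverse order. These orders were found for 36.5% and 36.3% of all genes tested. Among the 7, TFB1M was nearly level between gas 1 (11.08 CPM) and gas 2 (11.09 CPM). Gas 1 held the lowest of the 6 values for 7 factors, against 39.2% of all genes tested. No coefficient of correlation is given, since gas 1 and gas 2 stood apart from the other 4 libraries in the share.

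**Figure D3:**
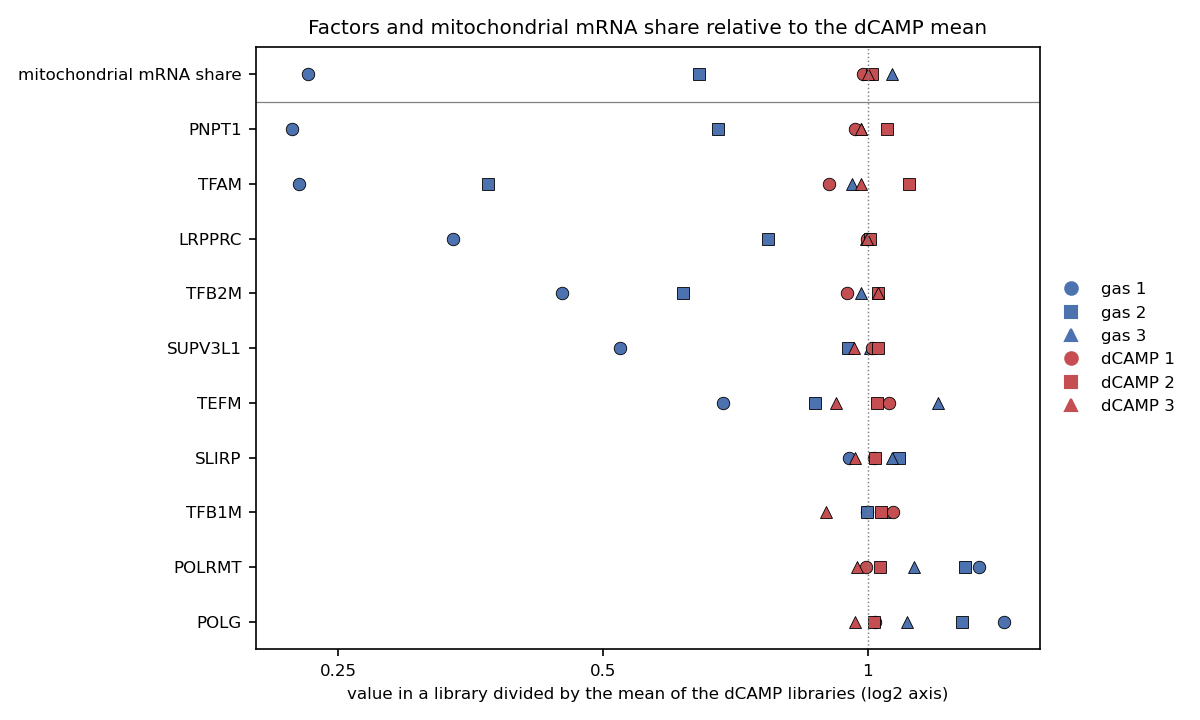
The share of counts on mitochondrially encoded messenger RNAs (top row) and the CPM of the 10 factors, each relative to its own dCAMP mean (log2 axis, 1 is the dCAMP mean), in each gas (blue) and dCAMP (red) library. In gas 1 PNPT1 and TFAM lie at 0.221 and 0.225, SLIRP and TFB1M near 1, and POLRMT and POLG at 1.34 and 1.43.

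Levels between factors were compared per length, as FPKM, which is scaled for transcript length and mapped fragments. In dCAMP-treated cells, SLIRP had the highest FPKM at 88.6 ± 2.58 (SD, n = 3), followed by LRPPRC at 40.5 ± 0.435, TFB2M at 36.8 ± 1.94 and PNPT1 at 20.5 ± 1.05. POLG was at 12.1 ± 0.350 FPKM, SUPV3L1 at 10.5 ± 0.335, TFAM at 8.31 ± 0.931, POLRMT at 8.15 ± 0.310, TFB1M at 7.48 ± 0.677 and TEFM at 6.46 ± 0.443. In this order TFAM and POLRMT, POLRMT and TFB1M, and TFB1M and TEFM overlapped over the dCAMP libraries, whereas the other neighbours did not overlap. In the gas control, SLIRP again had the highest FPKM at 91.8 ± 4.90, and TFAM the lowest at 4.28 ± 3.15. Among the genes tested, the mean FPKM over all libraries placed SLIRP at the percentile 94.5, LRPPRC at 84.2 and TFB2M at 82.4. TFAM and TEFM were at the percentiles 48.2 and 47.9.

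The spread of the factors was smaller among the dCAMP libraries than among the gas libraries for 9 of 10, all except TFB1M, as it was for 81.6% of all genes tested. With the trend of each library on gene length removed, the log2 fold change of LRPPRC was 0.33 and that of TFAM 0.86. POLRMT was then at −0.48 and POLG at −0.56.

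Of the 10 factors, 4 have more than 1 transcript in the deposited transcript table. POLRMT had 91.7% to 96.5% of its counts on its transcript of 3792 bases, in gas and dCAMP libraries alike. TEFM had 89.8% of its counts on the transcript of 1397 bases in gas 1, and 92.3% to 96.0% in the other 5 libraries. POLG had 85.6% of its counts on the transcript of 4859 bases in dCAMP 2, and 91.5% to 96.1% in the other libraries. SUPV3L1 had 93.4% to 96.7% on the transcript of 2730 bases. Its transcript of 3073 bases was listed at 58 counts in dCAMP 3 and at 0 to 3 counts in the others, while that of 3124 bases was at 4 counts in dCAMP 3 and at 47 to 91 in the others. These are shares of StringTie estimates, and no test was made.

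The values listed for the messenger RNAs of the mitochondrial genome differed from each other in how far gas 1 lay below the dCAMP libraries. ND3, a subunit of complex I, differed least, at 249 CPM in gas 1 and 461 ± 9.54 CPM (SD, n = 3) after dCAMP, a ratio of 1.86. COX3, a subunit of cytochrome c oxidase, had a ratio of 2.45, ND5 of 2.90 and ND1 of 2.92. CYTB, COX2, COX1, ATP6 and ND4 had ratios from 4.78 to 6.72. ND6, which is encoded on the other strand, had a ratio of 18.7, ND2 of 35.5, ATP8 of 56.4 and ND4L of 70.3. These last 4 were at 1.84, 16.01, 12.8 and 3.13 CPM in gas 1.

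From gas 2 to the dCAMP mean the ratios were 0.87 for ND3 to 2.15 for ND2 and ND4, with ND4L apart at 10.3, and from gas 3 they were 0.82 to 0.998. The composition of the mitochondrial messenger RNA counts differed as well. COX3 held 29.2% of them in gas 1, 19.99% in gas 2, 16.4% in gas 3 and 16.1% to 16.2% in the dCAMP libraries. ATP8 (chromosome M, 7803 to 8006) overlaps ATP6 (7964 to 8644), and ND4L (9911 to 10207) overlaps ND4 (10201 to 11578). ND6 (13582 to 14109) also overlaps ND5 (11778 to 13598), and ATP6 meets COX3 at 8644. How reads that span these neighbours were divided is not given in the sources used here. The ratios of these neighbours therefore cannot be read as separate levels of messenger RNA, and counts out of the 13 are counts of listed genes. In edgeR, 0 of the 13 had an adjusted p under 0.05 and 0 an unadjusted p under 0.05, against 20.7% of all genes tested. Their median log2 fold change was 0.64, with all 13 above 0, and 0.20 without gas 1, where ND1, ND3 and CYTB were below 0.

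**Figure D4:**
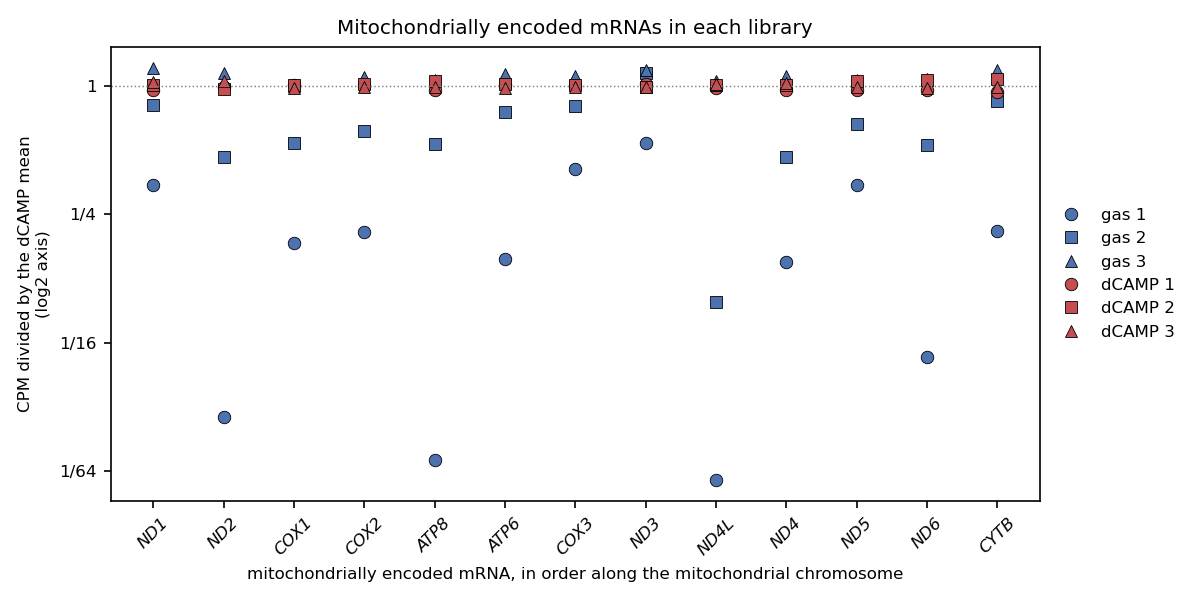
CPM of the 13 mitochondrially encoded messenger RNAs in each library relative to the dCAMP mean (log2 axis), in their order along the mitochondrial chromosome. Gas 1 lies below the dCAMP libraries for all 13, from 0.54 of the dCAMP mean for ND3 to 0.01 for ND4L, and gas 3 lies above the dCAMP mean, for COX1 only at 1.002 of it.

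Other genes of mitochondrial gene expression were described by lists. None of them held a gene with an adjusted p under 0.05 in edgeR, as none of the whole table did, and every gene of these lists with an unadjusted p under 0.05 was lower in dCAMP-treated cells (20.7% of all genes tested had such a p in either direction and 13.9% were lower). Of the MTERF family, regulators of mitochondrial transcription and ribosome assembly, 1 of 4 had an unadjusted p under 0.05, and the median log2 fold change was 0.55. MTERF1 was at 2.38, 6.25 and 12.5 CPM in the gas libraries and at 15.4, 13.7 and 17.1 CPM in the dCAMP libraries, with a log2 fold change of 1.12 (standard error 0.54). For MTERF4 it was −0.31 (standard error 0.10). Of the transcript processing genes, 1 of 8 had an unadjusted p under 0.05, with a median of 0.39. The highest was TRMT10C, a subunit of mitochondrial RNase P that cuts the 5′ ends of transfer RNAs, at 0.73 (standard error 0.47). The lowest was ELAC2, which cuts their 3′ ends, at −0.54 (standard error 0.13), with 118, 101 and 88.5 CPM in the gas libraries and 69.4, 74.2 and 68.3 CPM in the dCAMP libraries.

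Of the other RNA granule, stability and decay genes, 3 of 13 had an unadjusted p under 0.05, and the median was 0.17. The extremes were FASTKD1 at 0.80 (standard error 0.73) and DDX28, a helicase of the granules, at −0.56 (standard error 0.13). GRSF1, an RNA-binding protein of the granules picked once its values were known, was at 27.8, 156 and 240 CPM in the gas libraries and at 234, 248 and 251 CPM in the dCAMP libraries. Of the RNA modification genes, 7 of 18 had an unadjusted p under 0.05, with a median of −0.20. The extremes were the methyltransferase TRMT5 at 0.56 (standard error 0.46) and the pseudouridine synthase PUS1 at −0.50 (standard error 0.13). Of the replication and maintenance genes, 3 of 14 had an unadjusted p under 0.05, with a median of −0.02. The extremes were RRM2B, a ribonucleotide reductase subunit, at 0.80 (standard error 0.43) and RNASEH1, which degrades RNA in RNA–DNA hybrids, at −0.37 (standard error 0.11).

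Of the nuclear regulators of mitochondrial genes, 11 of 12 passed the filter, PPARGC1A being listed at 0 in every library, and 3 of the 11 had an unadjusted p under 0.05. The median was −0.17. GABPA, an ETS factor that activates nuclear genes for mitochondrial proteins, was at 22.2, 36.1 and 65.9 CPM in the gas libraries and at 62.8, 69.1 and 66.7 CPM in the dCAMP libraries, with a log2 fold change of 0.68 (standard error 0.37). For PPRC1, a coactivator of the PGC-1 family, it was −0.40 (standard error 0.11). Of the genes of general mitochondrial content, 5 of 15 had an unadjusted p under 0.05, and the median lay at −0.0038. The extremes were the import receptor TOMM20 at 0.56 (standard error 0.27) and the import channel TOMM40 at −0.50 (standard error 0.12). The RNA of CS, the gene of citrate synthase, also picked once its values were known, was at 427, 464 and 474 CPM in the gas libraries and at 457, 455 and 461 CPM in the dCAMP libraries.

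**Figure D5:**
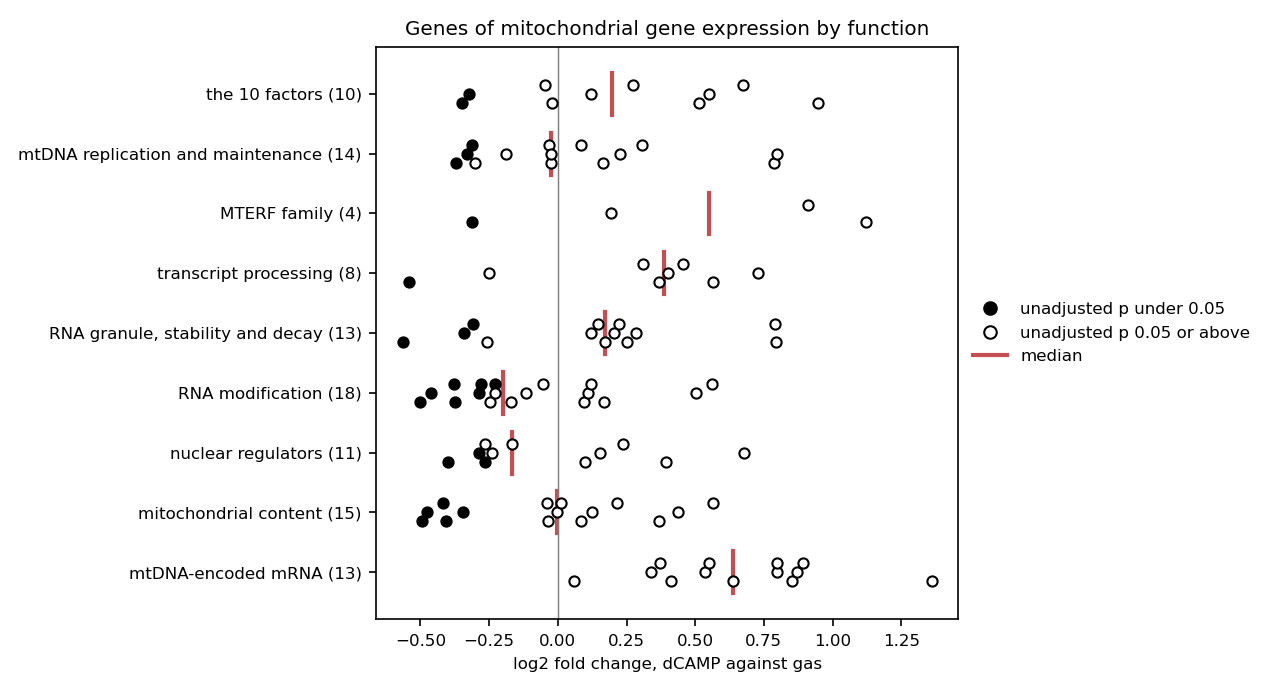
Log2 fold changes, dCAMP against gas, of the 10 factors, of 7 lists of genes related to mitochondrial gene expression and of the 13 mitochondrially encoded messenger RNAs, 1 point per gene tested, with the number tested in parentheses and the median as a red line. Filled points have an unadjusted p under 0.05 in edgeR, and all of them lie below 0.

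The genes most like TFAM over the 6 libraries, by Pearson's r of log2 CPM, were DEPTOR (0.9996), TDG (0.9990) and AP1AR (0.9990). DEPTOR, an inhibitor of mTOR, was at 51.8, 65.2 and 99.4 CPM in the gas libraries and at 97.9, 105 and 101 CPM in the dCAMP libraries. TDG, a thymine DNA glycosylase, was at 37.5, 48.8 and 75.8 CPM in the gas libraries and at 73.7, 80.1 and 78.1 CPM in the dCAMP libraries. The coefficients rest on 6 libraries in which gas 1 and gas 2 stand apart, and 295 of the 14698 other genes tested (2.01%) had a coefficient over 0.99.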

How the data were processed

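TruSeq Stranded mRNA libraries of gas-treated (3) and dCAMP-treated (3) CPEK cells were analysed. Per the labels and the study's methods, the authors trimmed reads with Trimmomatic 0.38, aligned them by HISAT2 2.1.0 to the CanFam3.1 genome and quantified known transcripts with StringTie 2.1.3b; the annotation release and the treatment of overlapping genes are not given in the sources used here. The deposited counts are whole numbers per gene and transcript without normalization. The deposited FPKM values, scaled by the authors for length and mapped reads, were used for levels between genes, and the deposited TPM values were not used.

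The tests were run in R 4.3.3 with edgeR 4.0.16 (TMM, filterByExpr, quasi-likelihood test, prior count of 2), limma 3.58.1 and DESeq2 1.42.0. Genes were called at an adjusted p under 0.05 by the Benjamini-Hochberg method, or by a 2-fold difference together with an unadjusted p under 0.05. The standard error is the size of the log2 fold change over the root of F. The steps were tested on simulated data. Single values were compared by two-sided exact permutation tests over the libraries. Unnamed mitochondrial rRNA and tRNA rows, kept in the totals, held at most 0.0264% of the counts of a library.

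The members and lists were chosen with earlier results of these data known. In each list the genes with the highest and the lowest log2 fold change are named, since none was called. TOP1MT, TBRG4, PTCD1 and TIMM23 were not analysed here, nor were promoter or protein sequences. The alternatives were other normalization, filters and tests, the replicate block, FPKM with a pseudocount of 1 or 0.1, a correction for gene length (lowess, span 0.3), the omission of mitochondrially encoded genes, and leaving out each library.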

Additional observations from a re-analysis of the deposited data

How the results depend on the processing

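Over the 10 factors and all alternatives, 164 of 170 log2 fold changes kept their direction. The 6 that did not were TFB1M at 0.013 with the length correction, 0.0098 with that correction and the replicate block and 0.021 without dCAMP 3 (range without 1 library −0.076 to 0.021), SLIRP at 0.0065 with the length correction and 0.010 with the correction and the block, and TEFM at −0.066 without gas 1 (−0.066 to 0.32). Of the mitochondrial messenger RNAs, ND1 was at −0.034 (−0.034 to 0.75), ND3 at −0.24 (−0.24 to 0.20) and CYTB at −0.046 (−0.046 to 0.87) without gas 1, and ND3 at −0.18 with voom. The cause was not tested for any result here.

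The number of factors with an adjusted p under 0.05 was 0. It was 6 with voom and sample quality weights (TFAM, TFB2M, LRPPRC and PNPT1 higher, POLRMT and POLG lower), where gas 1, 2 and 3 had weights of 0.115, 6.73 and 0.192. In the fits without 1 library it was 0 to 4, with 4 without gas 3. Of all genes tested, 60.8% were called with voom and 33.1% without gas 3. By the rule of fold and unadjusted p the number was 0. It was 1 with voom (1010 of the 14708 genes tested), 1 with log2(FPKM + 0.1) (373 of 14708) and 0 to 2 without 1 library, with 2 without gas 3 (1523 of 14975). With an unadjusted p under 0.05 it was 2, against 3040 of the 14708 genes tested. Voom gave 7 (9541 of 14708 genes) and log2(FPKM + 1) gave 4 (3482 of 14708 genes). The fits without 1 library gave 0 to 5, with 5 without gas 3 (7374 of 14975 genes). They gave 0 without gas 2 or any 1 of the dCAMP libraries, where 1024 to 1441 genes had such a p. The median of the factors was −0.02 to 0.36 without 1 library, with −0.02 without gas 1.

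Whether the replicate numbers pair the libraries could not be decided from these weak correlations. Deviations of same-numbered libraries correlated at 0.13, 0.02 and 0.05. For gas 1 and gas 2 this was their highest value, whereas gas 3 correlated better with dCAMP 2 (0.09) than with its own number. With the replicate block, 1 factor passed by fold and unadjusted p, as did 435 of the 14708 genes tested, and 4 factors had an unadjusted p under 0.05, as did 2775 genes. With the length correction and the replicate block these numbers were 1, 471, 4 and 3038. The block changed no other call among the factors. For the share of mitochondrial messenger RNA the replicate block gave 0.773 percentage points (exact sign-flip p = 0.5). With 3 pairs the sign-flip test cannot give a p under 0.05, so it could not show a difference. Relative to counts on genes not mitochondrially encoded the difference was 0.797 percentage points, and 0.827 with the most abundant nuclear genes left out. As a share of the summed FPKM, which has another base, it was 1.82 percentage points. The dCAMP mean was 1.55-, 1.54- and 1.58-fold the gas mean in these measures, against 1.55-fold for the share of counts. Without 1 library the difference in the share of counts was 0.320 to 1.23 percentage points.

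Over all genes, 0 had an adjusted p under 0.05; DESeq2 called 295, its run limited to genes counted in every library 163, voom 8944 and log2(FPKM + 0.1) 3, and the fits without 1 library 0 to 4953, with 4953 without gas 3. By fold and unadjusted p, 161 genes passed; no filter gave 279, DESeq2 369, its limited run 327, voom 1010, log2(FPKM + 0.1) 373 and the fits without 1 library 135 to 1523. The unadjusted p was under 0.05 for 3040 genes, for 9541 with voom, and 1024 to 7374 without 1 library.

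In the lists, where 0 genes were called, voom called 9 of 14 replication, 4 of 4 MTERF, 8 of 8 processing, 6 of 13 granule, 11 of 18 modification, 10 of 11 regulator and 9 of 15 content genes and 10 of 13 mitochondrial messenger RNAs, against 60.8% of all genes tested. DESeq2 called 1 processing, 1 granule and 1 modification gene. The fits without 1 library called 0 to 6, 0 to 2, 0 to 4, 0 to 4, 0 to 5, 0 to 7, 0 to 6 and 0 to 3 in the same order, the highest each time without gas 3, where 33.1% of all genes tested were called. The median log2 fold change of the replication genes was 0.043 with log2(FPKM + 1) and 0.046 with log2(FPKM + 0.1), that of the regulators −0.014 with voom and −0.26 to −0.094 without 1 library, and that of the modification genes −0.27 to −0.17 without 1 library. Without mitochondrially encoded genes in the totals, 6 factors in place of 7 were lowest in gas 1, and 6 in place of 7 followed the order of the share. The order could not be checked without the 2 libraries farthest from the median share, which are gas 1 and gas 2, since this leaves 1 control library.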

Other observations

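The mitochondrial ribosomal RNAs held 1787, 5612 and 8842 counts in gas 1, 2 and 3 and 8642, 7326 and 8761 counts in dCAMP 1, 2 and 3. The mitochondrial transfer RNAs held 103, 2617 and 4582 counts under gas and 3491, 3419 and 3048 after dCAMP. The libraries were prepared for messenger RNA. Ribosomal RNAs held from 0.0040% (gas 1) to 0.0196% (dCAMP 3) of the counts, and transfer RNAs from 0.00023% (gas 1) to 0.0085% (gas 3). Such residual counts may not reflect the levels of these RNAs in the cells. As a share of all counts, the dCAMP mean of the ribosomal RNAs was 1.79-fold that of the gas mean, and 4.65-, 1.74- and 1.13-fold that of gas 1, 2 and 3. In the two-sided exact permutation test the difference had p = 0.1, the smallest value that 3 libraries against 3 allow. For the transfer RNAs the dCAMP mean was 1.63-fold the gas mean (exact permutation p = 0.4), and it was 32.5-, 1.51- and 0.876-fold that of gas 1, 2 and 3, so that gas 3 lay above it.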
